A study of Gallus gallus with 26 samples.

Results

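Forkhead (FOX) transcription factors were examined in RNA-seq libraries of the joint interzone and of the adjacent phalange of the chick embryo. The members were the rows of the expression table whose symbol is FOX followed by a subfamily letter from A to S and a digit, and these were 22 of 15984 genes, from 13 lettered subfamilies. *FOXRED1* and *FOXRED2*, which encode oxidoreductases, fall outside this pattern, and forkhead genes under other symbols or none were not analysed here. White Leghorn embryos at stage HH32, incubated for 7.5 days, gave both tissues from digit 3 of the hindlimb, without any treatment or genetic change. The interzone is the band of dense mesenchymal cells where a joint will form, and the phalange sample was the proximal part of the neighbouring cartilage element. Poly(A)-RNA of 3 libraries per tissue was made into cDNA with the Smart-seq2 method and sequenced as single reads of 50 nt, and the number of embryos behind each library is not given in the sources used here.

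Forkhead proteins share a winged-helix DNA-binding domain, and the letter in their name gives the subfamily. In skeletal tissue, work in mouse has linked the FOXC proteins to the first steps of cartilage formation, the FOXP proteins to the timing of chondrocyte maturation, FOXA2 with FOXA3 to hypertrophy, and the FOXO proteins to the upkeep of articular cartilage. FOXM1 is the forkhead activator of genes for mitosis, FOXJ1 is the switch for motile cilia, and FOXF1 and FOXF2 respond to Hedgehog signals in mesenchyme.

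Between 12431285 and 14347148 reads per library lay on genes. The values below are normalized counts, that is, reads over the size factor of the library. They are not scaled to transcript length, so levels are compared between libraries and not between genes. Marker genes were read beside the labels of the tissues. The authors reported *GDF5*, *ENPP2*, *ERG*, *COL3A1*, *COL2A1*, *MATN1*, *RUNX2* and *SNAI1* as differing between the tissues in these same libraries. Their separation is thus no independent check of the labels. The summed level of *GDF5*, *ENPP2*, *ERG* and *COL3A1* was between 19535 and 99109 normalized counts in interzone and between 5280 and 8220 in phalange. The summed level of 6 cartilage genes, among them *COL2A1*, *MATN1* and *SOX9*, was between 10090 and 22472 in interzone and between 28299 and 51539 in phalange. Not all of the 6 separated the tissues. *SOX9* had a mean of 7764 in interzone and 7679 in phalange. *ACAN* overlapped, with 4707 in interzone 2 and 3886 in phalange 1. Interzone 2 was highest in the first sum by a wide margin. In bulk tissue, fewer cells of a type and less RNA per cell cannot be told apart.

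Every member had at least 1 read in at least 1 library, but so had all 15984 genes, so this is no finding about the family. A forkhead gene without any read would not appear among the members. *FOXA3* and *FOXF1* were not among the 22 members. The mean normalized count reached the minimum of 10 for 13 members, which were tested, and stayed below it for 9. Each of the 13 also had a mean of at least 10 in each tissue, so none of them entered the test through 1 tissue alone. For 1 tissue of *FOXJ1* and of *FOXK1*, though, that mean rested on 1 library. *FOXJ1* had 0, 0 and 59.3 normalized counts in interzone, and *FOXK1* had 64.9, 9.44 and 0 in phalange. Reads of all members together made up between 258 and 437 RPM (reads per 1000000 reads that lay on genes) in 5 of the libraries and 578 RPM in phalange 2. The lowest of these sums was in interzone 2. Of the forkhead reads, between 47.8% and 62.6% lay on the 3 FOXP genes in every library, a share that is not scaled to transcript length.

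No forkhead gene passed the test between the tissues. A gene was called at an adjusted p under 0.05 and a log2 fold change (log2FC, interzone over phalange, of the normalized count + 1) beyond 0.5. With limma, 0 of the 13 members were called higher in interzone, where 0% of all 11928 tested genes were called, and 0 were called in the other direction, against 0.0252% of all genes. At an unadjusted p of 0.05 limma selected 4 members, all with a lower level in interzone, against 2.74% of all genes in that direction and 3.72% in the other. edgeR's quasi-likelihood test called 0 members as well, against 0% and 0.00838% of all genes in the 2 directions, and gave an unadjusted p under 0.05 for 2 members. DESeq2, the tool of the study, run on all genes called 0 members, and 3 had an unadjusted p under 0.05. It called 0.726% of all genes in the interzone direction and 0.382% in the phalange direction, or 0.872% and 0.402% when run on the 11928 genes above the minimum, where it also called 0 members. The share of all genes at an unadjusted p under 0.05 was not computed for edgeR or DESeq2. Their counts of 2 and 3 members thus stand without a background. The median log2FC of the 13 members was -0.32, against -0.00076 over all tested genes, and 9 of the 13 had a negative log2FC. The spread within a tissue was large: the residual standard deviation on the log2 scale had a median of 0.665 over the members and 0.593 over all tested genes.

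For *FOXC2*, *FOXP1*, *FOXJ3* and *FOXJ1* every phalange library lay above every interzone library. This was 30.8% of the tested members, where 5.11% of all tested genes separated in this direction and 5.86% in the other. For each of these 4 genes the two-sided exact permutation test gave p = 0.1, the smallest p that 3 libraries against 3 allow. This p follows from the separation and adds nothing to it. The same 4 genes were those that limma selected at an unadjusted p of 0.05. How far the nearest libraries of the tissues stood apart differed among the 4 genes and is given for each below.

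**Figure D1:**
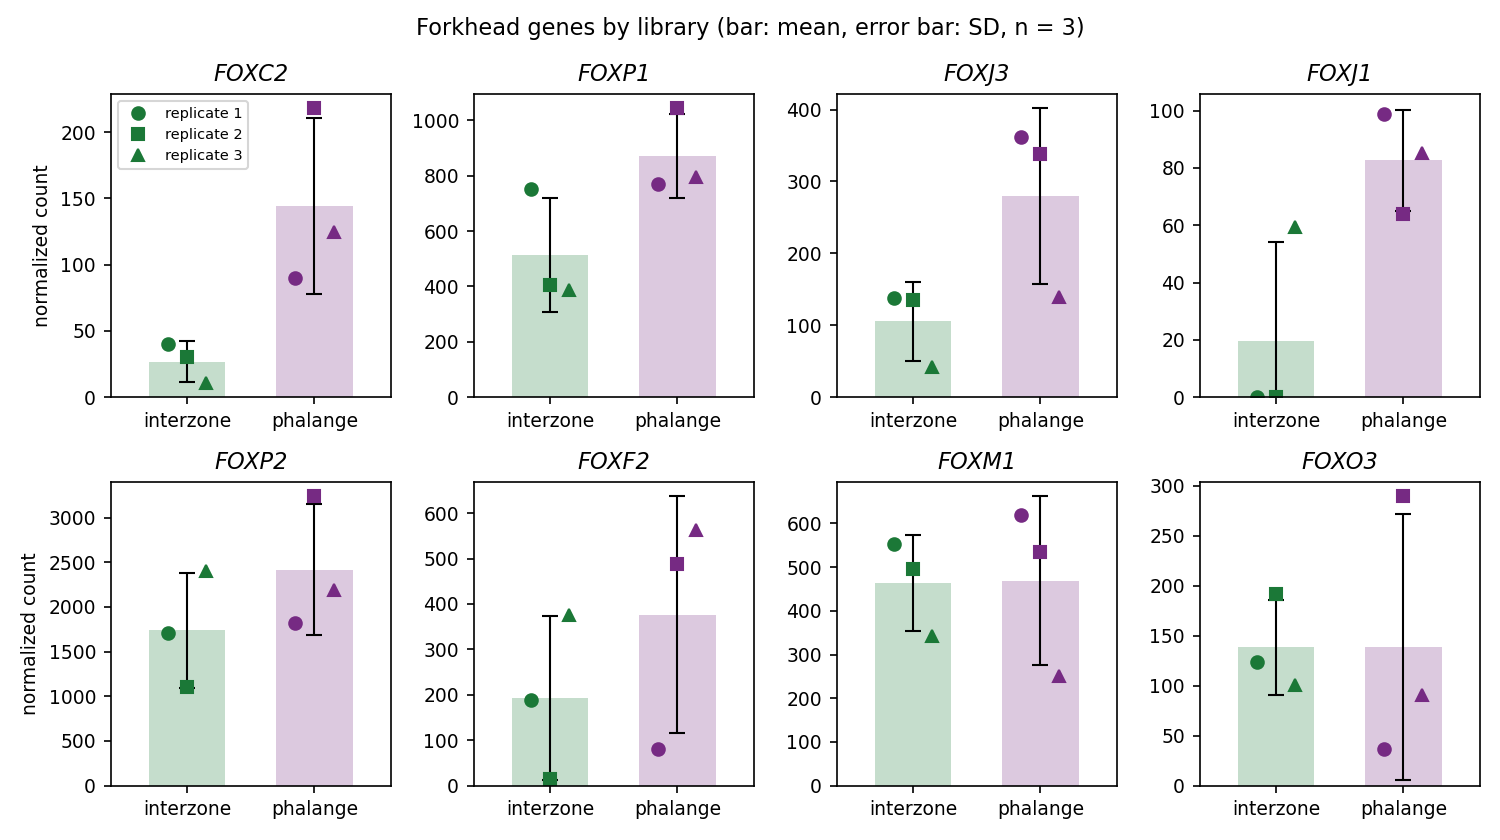
Normalized counts (y axis, linear, from 0) of 8 forkhead genes in interzone and phalange, where bars are means, error bars are SD over 3 libraries and symbols mark replicates 1 to 3. *FOXC2* shows a gap between the tissues, *FOXP1*, *FOXJ3* and *FOXJ1* separate by little, and the other 4 genes overlap, with 14.5 normalized counts of *FOXF2* in interzone 2 as the lowest value of that gene.

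*FOXC2* is needed for the axial skeleton and for lymphatic vessels in mouse. It had 40.2, 29.9 and 10.4 normalized counts in interzone 1, 2 and 3 and 89.8, 218 and 124 in phalange 1, 2 and 3. The tissues did not overlap, and the gap between them was wider than the spread of the interzone libraries. The means were 26.8 ± 15.2 (SD, n = 3) and 144 ± 66.4 (SD, n = 3). The log2FC was -2.48 with a standard error (SE) of 0.75 and a 95% interval from -4.19 to -0.77, and the adjusted p was 0.541 by limma. DESeq2 gave *FOXC2* a log2FC of -2.42 and an adjusted p of 0.0647. This was the lowest adjusted p of a member in any test with all 6 libraries. In RPM, the nearest libraries were interzone 1 with 3.14 (95% Clopper-Pearson interval 2.29 to 4.20) and phalange 1 with 7.16 (5.76 to 8.80). *FOXC2* was the only one of the 4 separated genes whose nearest libraries had counting intervals that did not overlap. When any 1 library was dropped, limma gave *FOXC2* a log2FC from -2.86 to -1.93 and an adjusted p from 0.514 to 0.999, and DESeq2 an adjusted p from 0.0593 to 0.518.

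Since *FOXC2* is also a gene of lymphatic and blood vessels, markers of endothelium were read beside it. Of the 7 markers listed, 5 were in the table. Their summed level was between 159 and 445 normalized counts in interzone and between 129 and 759 in phalange. Phalange 2, with the highest *FOXC2*, had the lowest sum of endothelial markers. The part of vessel cells in the level of *FOXC2* was not tested.

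*FOXC1*, the close relative of *FOXC2*, had a mean under the minimum and was not tested by limma. It had 5, 15 and 7 reads in interzone and 10, 11 and 2 in phalange, so the tissues overlapped. Its log2FC by DESeq2 was 0.18 with an SE of 1.48, and its 50 reads in all gave little precision. Whether *FOXC1* and *FOXC2* differ in their response was not tested.

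The 3 FOXP genes encode repressors that can pair with one another. In mouse, they act together on RUNX2 and on the maturation of chondrocytes. *FOXP1* had 751, 405 and 386 normalized counts in interzone 1, 2 and 3 and 771, 1045 and 796 in phalange 1, 2 and 3. Interzone 1 was nearly as high as the lowest phalange library, while the other interzone libraries lay well below. The means were 514 ± 205 (SD, n = 3) and 871 ± 151 (SD, n = 3), with a log2FC of -0.82 (SE 0.33, 95% interval -1.56 to -0.07, limma adjusted p = 0.715). The gap between the nearest libraries was within counting error, at 58.5 RPM in interzone 1 (95% Clopper-Pearson interval 54.7 to 62.6) and 60.2 RPM in phalange 3 (56.1 to 64.4). The adjusted p of *FOXP1* by DESeq2 was 0.538 with all libraries. Without interzone 1 it was 0.0310, with a log2FC of -1.14, and *FOXP1* was then called. This setting was added with the data in view. Over all alternatives the adjusted p of *FOXP1* ranged from 0.0310 to 0.999.

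*FOXP2* had 1709, 1109 and 2400 normalized counts in interzone and 1824, 3237 and 2195 in phalange. Phalange 2 was the highest library and interzone 2 the lowest, and interzone 3 lay above the other phalange libraries. The log2FC was -0.50 (SE 0.33, 95% interval -1.25 to 0.24, limma adjusted p = 0.908). *FOXP2* took between 61.7% and 77.9% of the reads on the 3 FOXP genes in each library. These shares are not scaled to transcript length and do not rank the genes by transcript number. For *FOXP4*, values of 197, 204 and 296 in interzone stood against 360, 244 and 189 in phalange. Its highest and its lowest library were both phalange, and the log2FC was -0.16 (SE 0.40, 95% interval -1.07 to 0.75, limma adjusted p = 0.993). A change of *FOXP4* as large as that of *FOXP1* thus lay within its interval.

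*FOXJ3*, a gene of the FOXJ subfamily that in mouse acts in muscle regeneration, had 139, 135 and 42.3 normalized counts in interzone and 362, 338 and 139 in phalange. Phalange 1 and 2 stood well above all other libraries, whereas phalange 3, with 138.8, lay next to interzone 1, with 138.5. Its log2FC was -1.46 (SE 0.63, 95% interval -2.88 to -0.04, limma adjusted p = 0.752). The separation of the tissues depended on the scaling. In RPM, interzone 1 had 10.8 RPM (95% Clopper-Pearson interval 9.17 to 12.6) and phalange 3 had 10.5 RPM (8.85 to 12.3), so the tissues overlapped.

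*FOXJ1*, which switches on the program of motile cilia, had 0, 0 and 59.3 normalized counts in interzone and 98.8, 64.0 and 85.2 in phalange. It was thus present in every phalange library and in 1 interzone library. The zeros in interzone 1 and 2 allow up to 0.209 and 0.222 RPM, whereas interzone 3 had 4.66 RPM (95% Clopper-Pearson interval 3.58 to 5.96) from 63 reads. This did not differ beyond counting error from phalange 2, which had 4.91 RPM (3.75 to 6.30). The log2FC of *FOXJ1* was -4.39 (SE 1.63, limma adjusted p = 0.661) and depended on the pseudocount, with -5.05 for a pseudocount of 0.5 and -2.26 for one of 10. edgeR and DESeq2 gave -2.07 and -2.06. Without interzone 3 the log2FC was -6.36 (adjusted p = 0.198) by limma and -8.87 (adjusted p = 4.6e-05) by DESeq2. The call of DESeq2 without this library rests on the zeros of the remaining interzone libraries, and the size of its log2FC is no bound on the fold. Over all alternatives the adjusted p of *FOXJ1* ranged from 4.6e-05 to 1.00.

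**Figure D2:**
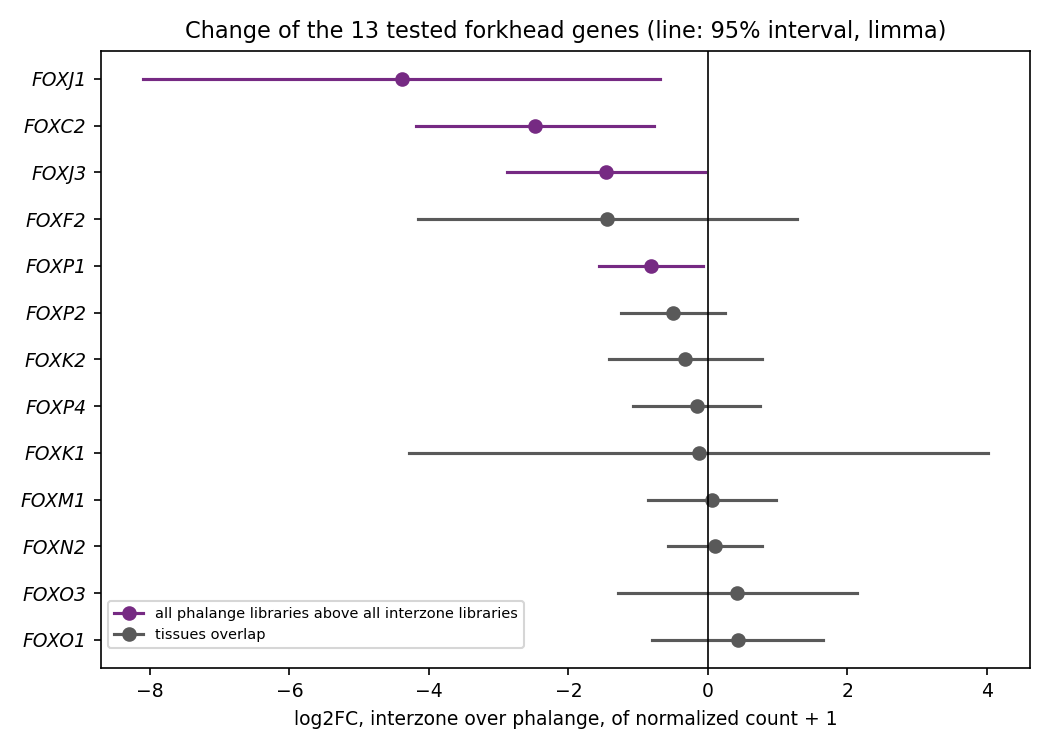
Log2FC (x axis, interzone over phalange, of the normalized count + 1) of the 13 tested forkhead genes, with the limma 95% interval for each gene as a line. Genes without overlap of the tissues are in purple, and among them *FOXC2* has an interval from -4.19 to -0.77. The intervals of the 9 genes in grey all contain 0.

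*FOXF2*, a Hedgehog-responsive gene of mesenchyme, had low and high libraries in both tissues. Its normalized counts were 189, 14.5 and 376 in interzone and 79.9, 488 and 563 in phalange. Interzone 2 was far below all other libraries and phalange 1 was the next lowest. The means were 193 ± 181 (SD, n = 3) and 377 ± 260 (SD, n = 3), and the log2FC was -1.44 (SE 1.19, 95% interval -4.16 to 1.27, limma adjusted p = 0.935). Without interzone 2 the log2FC was -0.072. The low value of interzone 2 came from 14 reads, or 1.04 RPM (95% Clopper-Pearson interval 0.567 to 1.74), against 14.8 RPM (12.9 to 16.9) in interzone 1, so the difference between interzone libraries was larger than counting error.

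In the RefSeq gene order of the assembly GRCg7b, *FOXF2* and *FOXC1* are neighbours with 0 protein-coding genes between them, and so are *FOXE3* and *FOXD2*. The 15 reads of *FOXC1* in interzone 2 were its highest count, in the library in which *FOXF2* was lowest. In contrast, *FOXE3* and *FOXD2* both had their highest count in phalange 2, with 19 and 6 reads.

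The FOXO proteins are kept out of the nucleus when insulin and growth factor signals activate AKT. *FOXO1* had 180, 312 and 104 normalized counts in interzone and 198, 101 and 121 in phalange. Interzone 2 was the highest library and the others overlapped, with a log2FC of 0.43 (SE 0.54, 95% interval -0.80 to 1.65, limma adjusted p = 0.967). Without interzone 2 the log2FC of *FOXO1* was 0.033. *FOXO3* had 123, 192 and 101 in interzone and 36.9, 289 and 90.9 in phalange. Its highest and its lowest library were both phalange, and the means were 139 ± 47.6 (SD, n = 3) and 139 ± 133 (SD, n = 3). The log2FC of *FOXO3* was 0.42 (SE 0.75, 95% interval -1.29 to 2.14, limma adjusted p = 0.982), while DESeq2, which averages counts and not logs, gave -0.0043. *FOXO6* was seen with 5 reads in interzone 1 and with 0 in the other libraries.

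Genes around the FOXO proteins were read from a pair of lists. Of 23 genes that control FOXO activity, such as *AKT1*, *SGK1* and the 14-3-3 genes, 21 were tested and 0 were called in either direction by limma, with 0 at an unadjusted p of 0.05 and 0 called by DESeq2. Their median log2FC was -0.059. Of 21 genes known as FOXO targets, 15 were tested and 0 were called by limma, with 1 at an unadjusted p of 0.05. This gene was *KLF2*, a factor best known from endothelium under flow, with 1119, 883 and 841 normalized counts in interzone and 1766, 2028 and 2834 in phalange. Its libraries did not overlap, and its log2FC was -1.20 (SE 0.25, limma adjusted p = 0.249, DESeq2 adjusted p = 0.00183). The median of the targets was -0.14 over all libraries, and its sign was not stable. It was 0.38 without interzone 2, 0.32 without phalange 2 and 0.11 without interzone 3. It stayed negative when any other library was dropped.

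*FOXM1* is the forkhead factor of dividing cells. It had 554, 496 and 343 normalized counts in interzone and 620, 535 and 251 in phalange. The tissues overlapped fully, and in each tissue the library with the number 3 was the lowest. The means were 464 ± 109 (SD, n = 3) and 469 ± 193 (SD, n = 3), with a log2FC of 0.059 (SE 0.41, 95% interval -0.86 to 0.98, limma adjusted p = 1.00). The sign of this log2FC changed in 9 of the 21 alternatives.

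Of 21 genes known to be activated by FOXM1 in mitosis, 16 were tested. All 16 had a negative log2FC, with a median of -0.30, where 50.1% of all tested genes were negative. With limma 0 of them were called, and *NEK2*, a kinase of the centrosome, was the only one at an unadjusted p of 0.05 and the only one called by DESeq2. *NEK2* had 1300, 823 and 1141 normalized counts in interzone and 2050, 1938 and 1874 in phalange, a log2FC of -0.87 (SE 0.23, limma adjusted p = 0.497, DESeq2 adjusted p = 0.0478). The shared direction of this list rested on interzone 2. The summed level of the targets was 28702 normalized counts in that library, against 57189 and 57362 in interzone 1 and 3 and 50763 to 65461 in phalange. Without interzone 2, 7 of the 16 were negative and the median was 0.036. The library with the lowest *FOXM1* was not the one with the lowest targets. Interzone 2 had 496 normalized counts of *FOXM1* and the lowest mean log2 level of the targets, 10.1, whereas phalange 3 had the lowest *FOXM1*, 251, with a mean of 10.9.

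The remaining tested members also overlapped between the tissues. *FOXN2* had 732, 434 and 610 normalized counts in interzone and 459, 592 and 579 in phalange. Its log2FC was 0.099 with the narrowest interval of the members, from -0.58 to 0.78. *FOXK2*, one of a pair of forkhead factors that hold back autophagy genes and promote glycolysis, had 447, 227 and 169 in interzone and 492, 325 and 211 in phalange, and a log2FC of -0.32 (95% interval -1.42 to 0.77). *FOXK1*, the other one, was near the minimum, with 14.3, 16.5 and 0.941 in interzone and 64.9, 9.44 and 0 in phalange. Most of its reads came from phalange 1, and its interval, from -4.28 to 4.01, was the widest of the members.

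**Figure D3:**
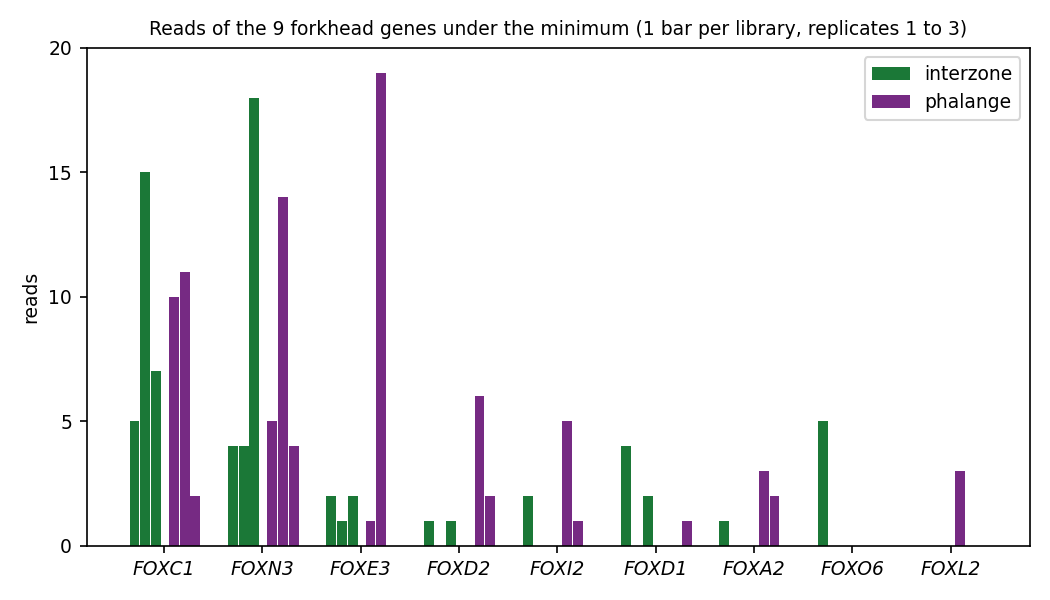
Reads (y axis, linear, from 0) of the 9 forkhead genes with a mean normalized count under 10, with 1 bar for each library in the order of replicates 1 to 3. *FOXC1* and *FOXN3* have reads in all 6 libraries, whereas the 19 reads of *FOXE3* in phalange 2, the 5 reads of *FOXO6* in interzone 1 and the 3 reads of *FOXL2* in phalange 1 are the bulk or all of what was counted.

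Of the 9 members under the minimum, *FOXC1* and *FOXN3* had reads in all 6 libraries, and the other 7 had 0 reads in at least 1 library. These 9 genes together had 163 of the 32691 forkhead reads. *FOXN3*, which in other species takes part in the DNA damage checkpoint, had 4, 4 and 18 reads in interzone and 5, 14 and 4 in phalange. *FOXE3*, known from the lens, had 25 reads, of which 19 were in phalange 2. *FOXD2* had 10 reads, *FOXI2* 8 and *FOXD1*, known from the stroma of the kidney, 7. *FOXL2*, known from the ovary, had 3 reads, all in phalange 1.

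*FOXA2*, which in mouse drives hypertrophy together with FOXA3, had 1, 0 and 0 reads in interzone and 3, 2 and 0 in phalange. The highest of these, 0.239 RPM in phalange 1, had a 95% Clopper-Pearson interval of 0.0492 to 0.698, which takes in the limit of 0.222 RPM that 0 reads allow in interzone 2 and in interzone 3. A difference between these libraries was thus not detectable at this depth. *COL10A1*, the collagen of hypertrophic cartilage, was at 0 in 5 libraries and at 1.88 normalized counts in interzone 3.

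Of 18 proteins that bind forkhead factors or act with them as corepressors or coactivators, 14 were tested and 0 were called by limma, with 1 higher in interzone and 2 lower at an unadjusted p of 0.05. Their median log2FC was -0.22. *CTBP1*, a corepressor of the FOXP proteins, had 5058, 10878 and 5910 in interzone and 8861, 17885 and 19846 in phalange. Its tissues overlapped through interzone 2 and phalange 1, with a log2FC of -1.09 (SE 0.37, limma adjusted p = 0.604). *TLE1*, a corepressor of the Groucho family, had a log2FC of 1.93 (SE 0.64, limma adjusted p = 0.595), with the tissues apart.

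The last lists held Hedgehog genes, which lie upstream of FOXF factors, and cartilage genes linked to FOXC, FOXP and FOXA proteins. Of the 10 tested Hedgehog genes 0 were called by limma, and DESeq2 called *CDON* and *BOC*, coreceptors of the pathway. *CDON* had a log2FC of 2.32 (SE 0.42, limma adjusted p = 0.162), and *BOC* one of 1.79 (SE 0.40, limma adjusted p = 0.307). *GLI1*, a direct read-out of Hedgehog signals, was 1 of 3 with a negative log2FC, at -1.60 (SE 0.61, limma adjusted p = 0.698). The other 7 were positive, and the median of the 10 was 0.38, so *GLI1* does not stand for the list. Of 12 tested cartilage genes 1 was called by limma, *RUNX2*, the partner that FOXP proteins restrain in mouse, at a log2FC of -2.50 (SE 0.22, limma adjusted p = 0.0225). DESeq2 called *RUNX2* and *COL2A1* lower in interzone, with a DESeq2 log2FC of -2.52 and -2.31. It called *PTHLH* in the opposite direction, higher in interzone, with a log2FC of 2.90. *RUNX2* and *COL2A1* were also among the cartilage genes read as tissue markers above.

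**Figure D4:**
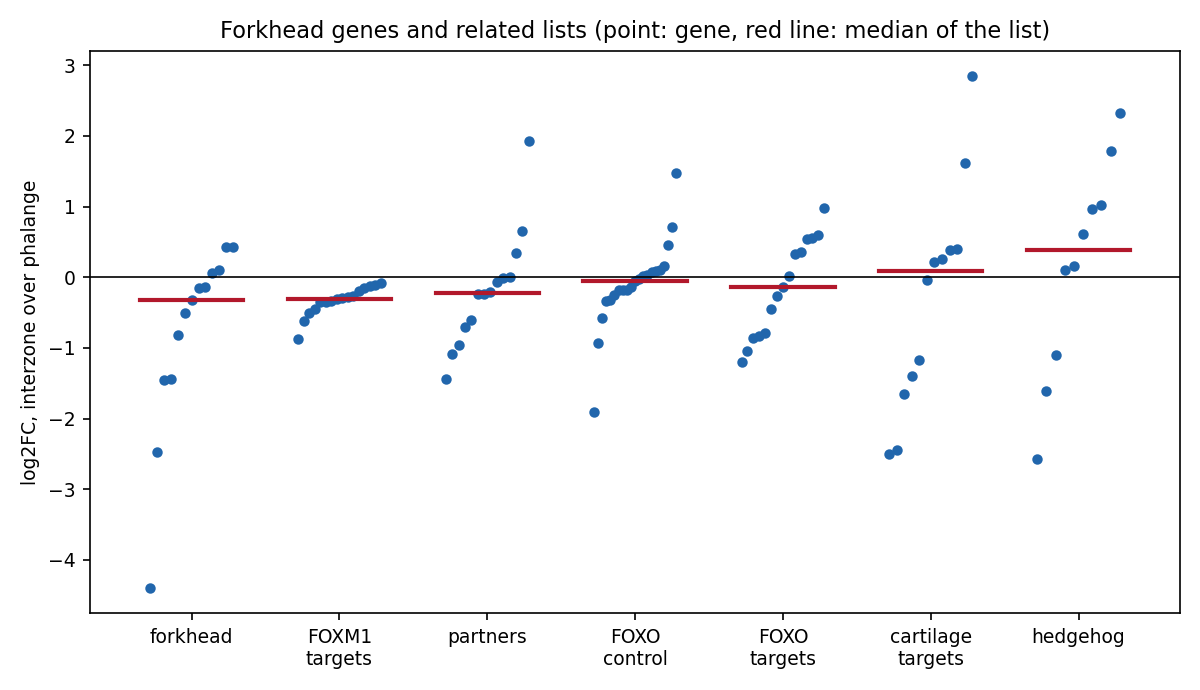
Log2FC (y axis, interzone over phalange, of the normalized count + 1) of the tested genes of the forkhead family and of 6 related lists, with 1 point per gene and a red line at the median of each list. The 16 FOXM1 targets all lie below 0, with a median of -0.30 that became 0.036 without interzone 2, and the forkhead genes spread from -4.39 to 0.43.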

How the data were processed

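The authors removed adapters with Trimmomatic, mapped reads to the Gallus gallus 6.0 genome with STAR, counted them with featureCounts on the Ensembl annotation and deposited counts divided by DESeq2 size factors, a signal that is not whole. All values (100%, within 1e-06) were whole multiples of 1 read per library, so reads were recovered. Smart-seq2 keeps no strand and no molecular tags, so reads of overlapping genes cannot be told apart and intervals cover counting error only (95% level, with 3 reads as the limit that 0 allows). P-values measure the spread between these libraries.

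Log2(normalized count + 1) of the 11928 genes with a mean of at least 10 was fitted with limma 3.58.1 (trend) in R 4.3.3, with p adjusted (Benjamini-Hochberg) over all of them. edgeR 4.0.16 and DESeq2 1.42.0 were run on the recovered reads, and 3185 adjusted p that DESeq2 gave as NA over all genes stayed NA. The fits were tested on simulated counts with large changes and a fixed spread that was not estimated from these data. That test does not measure their power at the spread seen here. Members and lists were chosen with earlier results of these data known. By rule, values in all libraries were given for members that were called or did not overlap and for tested FOXA, FOXC, FOXF, FOXM, FOXO and FOXP genes, and related genes were named where called, else where the tissues did not overlap (at most 4 a list), or where they define the list. Library values of *FOXN2*, *FOXK1* and *FOXK2*, and *CTBP1*, *COL2A1* and *PTHLH*, were added after their values were seen. The 10 deposited lists of H3K27ac and H3K4me1 peaks were not used, since no annotation of their build was used here. Figures were drawn with matplotlib 3.10.9. Marker lists for 7 other cell types were read as sums. Some related genes are not reported here.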

Additional observations from a re-analysis of the deposited data

How the results depend on the processing

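Depth limits the 9 genes under the minimum, and 3 libraries per tissue limit all tests. The 2 counts of called forkhead genes stayed at 0 in every setting with all 6 libraries and in every limma fit with 1 left out, the replicate block included. With DESeq2 on all genes and 1 library left out, a setting added after the data were seen, the count higher in phalange was 0 to 1. Over all genes, the counts for interzone and phalange were 1 and 5 with a pseudocount of 10, 2 and 5 with a minimum mean of 50, 104 and 48 with DESeq2 on the filtered genes and 116 and 61 with DESeq2 on all genes, and edgeR called 1 higher in phalange. With 1 library left out, the counts ranged from 0 to 5 and from 0 to 4 with limma and from 73 to 217 and from 31 to 113 with DESeq2 on all genes. With the replicate number as a block, 1 gene was called higher in phalange. The deviations of libraries with the same number from their tissue means had r = 0.192, 0.0804 and -0.0170. Only 1 of them was over 0.1, so the numbers were not taken as pairs, though a weak pairing may exist. Libraries with different numbers had r from -0.144 to 0.0733, below the values of numbers 1 and 2. The sources used here state no pairing of the RNA-seq libraries.

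Of 272 values of the 13 genes under alternatives, 26 changed sign, all for genes with overlapping tissues. For genes without overlap, limma on the deposited values cannot change sign when 1 library is dropped or the pseudocount is changed. The lack of sign changes in those genes is thus no separate evidence for them. *FOXK1* had 0.053 with a pseudocount of 0.5. *FOXM1* had -0.021 with edgeR and -0.015 and -0.014 with DESeq2 on filtered and on all genes, and *FOXO3* had -0.013, -0.0063 and -0.0043. With 1 library left out the log2FC ranged from -1.81 to 1.32 for *FOXK1*, from -0.79 to 0.072 for *FOXK2*, from -0.34 to 0.31 for *FOXM1*, from -0.070 to 0.31 for *FOXN2*, from -0.45 to 1.19 for *FOXO3* and from -0.39 to 0.10 for *FOXP4*. Without a change of sign it ranged from 0.027 to 0.85 for *FOXO1*, from -0.78 to -0.21 for *FOXP2* and from -1.90 to -0.91 for *FOXJ3*. The cause was not tested.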

Other observations

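The 13 tested forkhead genes were also compared by the libraries in which they were highest. Of their 78 pairs, 9 had the same 3 libraries as their highest, and 6 of these were pairs of the 4 genes that were higher in all phalange libraries. These 6 pairs follow from the separation of the 4 genes and add nothing to it. The other 3 pairs did not follow the tissues. *FOXF2* and *FOXP2* were both highest in interzone 3, phalange 2 and phalange 3. *FOXO1* and *FOXK1* were both highest in the remaining libraries, interzone 1, interzone 2 and phalange 1. *FOXK2* and *FOXM1* were both highest in interzone 1, phalange 1 and phalange 2. In 4 pairs the highest libraries of one gene were the lowest of the other, and these joined *FOXF2* or *FOXP2* with *FOXO1* or *FOXK1*. Whether such pairs were more frequent than among other genes was not tested. The pairs were picked after their values were seen, all genes come from the same 6 libraries, and *FOXK1* rests on few reads. The summed level of blood markers was 33483, 1483 and 51058 normalized counts in interzone and 39279, 694 and 8201 in phalange. The summed cartilage markers were 11463, 22472 and 10090 in interzone and 28299, 51539 and 49654 in phalange.

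Markers of other cell types were present in both tissues. The summed level of 6 skeletal muscle genes was between 779 and 1921 normalized counts in interzone and between 485 and 991 in phalange, that of 5 epidermis genes between 941 and 1440 and between 545 and 969, and that of 4 tendon genes between 1919 and 3408 and between 2764 and 3738. The 3 macrophage genes summed to between 610 and 1322 and between 409 and 1459, and the 3 nerve genes to between 4.13 and 202 and between 4.99 and 75.6.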
